A study of Mus musculus with 6 samples.

Results

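Hepcidin and the genes that set it, sense iron, move iron and store it were followed in mouse liver with and without Sesn3, the gene of the stress-inducible protein sestrin 3. The 10 genes were taken by symbol from the deposited count table of 24421 symbols: the hepcidin genes Hamp and Hamp2, their BMP-SMAD control (Bmp6, Smad7, Id1), the iron sensors Hfe, Tfr2 and Tfrc, the iron exporter Slc40a1 and the ferritin gene Fth1. All 10 passed the filter on low counts that left 12945 genes for testing. The 6 libraries came from livers of male C57BL/6 mice aged 4 months, 3 labelled Sesn3 KO and 3 labelled wild type (WT). Every mouse, WT included, had been fed for 4 weeks a diet with 20% of its energy from protein, 40% from fat and 40% from carbohydrate, with 1.25% cholesterol and 0.5% of the bile salt sodium cholate. No group on another diet is among the 6 samples. How the Sesn3 allele was made is not given in the sources used here.

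Hepcidin is a peptide hormone that hepatocytes release. It binds ferroportin, the iron exporter encoded by Slc40a1, and removes it from the surface of macrophages, enterocytes and hepatocytes, which lowers plasma iron. Sinusoidal endothelial cells make the ligands BMP6 and BMP2, which act on hepatocyte receptors with the co-receptor hemojuvelin, and phosphorylated SMAD1, SMAD5 and SMAD8 with SMAD4 then switch on Hamp together with Id1, Smad7 and Atoh8. HFE and transferrin receptor 2 add a signal of transferrin iron, the protease matriptase-2 (Tmprss6) damps the pathway, and interleukin 6 acts on Hamp through STAT3. Mice carry a second copy, Hamp2, whose product is not known to control iron.

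The promoters of the hepcidin genes are shown to compare the copies and because BMP and STAT3 act on Hamp there. Both genes lie on the minus strand of chromosome 7, Hamp at 30942368 to 30944032 and Hamp2 at 30922372 to 30924681 (GRCm38, the assembly of mm10, GENCODE). The RefSeq windows of 300 bases, 250 before and 50 after the annotated start, were identical at 276 of 297 aligned bases (92.9%). The stretches of 80 bases below are from RefSeq, GRCm38.p6, minus strand, chr7:30944090-30944169 for Hamp and chr7:30924239-30924318 for Hamp2. The Hamp stretch lies upstream of the GENCODE gene. The Hamp2 stretch lies inside the GENCODE gene, whose start is farther upstream than the RefSeq start, so it is upstream by RefSeq only. Capitals mark the Hamp matches to GGCGCC (the core of a BMP-responsive element), TTCNNNGAA (the spacing of a STAT site) and TGAGTCA (a bZIP site of the AP-1 type), and the same positions in Hamp2.
Hamp: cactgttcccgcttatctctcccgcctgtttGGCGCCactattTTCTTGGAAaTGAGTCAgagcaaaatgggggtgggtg
Hamp2: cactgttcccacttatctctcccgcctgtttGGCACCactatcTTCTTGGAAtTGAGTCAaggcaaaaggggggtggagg

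The 80-base stretches differed at 9 positions, counted from 1 at the 5′ end of the Hamp stretch. Of these, 1 lay inside a searched motif, G35A, so that Hamp2 holds no GGCGCC in its window, while the STAT-type and bZIP-type letters were the same in both genes. In the Hamp window GGCGCC begins 109 bases before the start, TTCTTGGAA 97 bases and TGAGTCA 87 bases, and none of them overlaps another. Searched on both strands, GGCGCC occurred in 11.9% of 32851 RefSeq windows of the same length, TTCNNNGAA in 8.3% and TGAGTCA in 5.2%. Windows were at hand for 7 of the 10 genes. GGCGCC was also present in 1 of the Tfrc windows, and TGAGTCA in the Hfe window. The windows of Bmp6, Tfr2 and Fth1 held none of the 3 motifs, and those of Smad7, Id1 and Slc40a1 were not used here. A match describes letters and not binding.

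The iron genes carry a second kind of control, in the transcript. Iron regulatory proteins bind a hairpin, the iron-responsive element (IRE), when iron is low. In the 5′ UTR this blocks translation and so need not show in RNA counts, while in the 3′ UTR of Tfrc it protects the transcript. A search of GENCODE protein-coding transcripts for C, 5 bases, CAGTGN and 5 bases that can pair with the first 5 (G with T pairs allowed) found 1 site each in the 5′ UTR of Fth1 and Slc40a1 and 4 in the 3′ UTR of Tfrc. Such a site occurred in the 5′ UTR of 0.134% of 20873 genes and the 3′ UTR of 0.605% of 20981, and in neither UTR of the other 7 members. Capitals mark the loop (GRCm38; the sites lie at chr19:9982733-9982759 on the plus strand, chr1:45925466-45925492 on the minus strand, and chr16:32631220-32631246, chr16:32631599-32631625, chr16:32631664-32631690 and chr16:32631711-32631737 on the plus strand, in this order).
Fth1: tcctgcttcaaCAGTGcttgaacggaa
Slc40a1: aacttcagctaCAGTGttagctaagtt
Tfrc a: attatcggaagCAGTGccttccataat
Tfrc b: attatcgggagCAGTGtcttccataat
Tfrc c: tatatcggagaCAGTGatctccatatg
Tfrc d: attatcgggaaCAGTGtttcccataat

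The libraries summed to between 18882220 and 24098512 counts. Sesn3 had 16 to 18 counts in each KO library and 172 to 200 in each WT library. Correlations of log CPM over genes ran from 0.976 to 0.985 within KO, 0.948 to 0.978 within WT and 0.911 to 0.955 between genotypes, and WT replicates 1 and 2 lay at opposite ends of the second principal component (21.4% of the variance). Hepatocyte markers summed to 142700 to 171000 CPM in KO and 121400 to 186400 in WT, with Alb the highest. None of the 12 was called by edgeR (0 higher and 3 lower at an unadjusted p under 0.05, where 25.8% of all genes lay, 3 lower by DESeq2, 0 by limma-voom). Of all genes tested edgeR, DESeq2 and limma-voom called 6.94%, 15.3% and 6.7%. Summed macrophage and monocyte markers were 1172 to 1251 CPM in KO and 246 to 1063 in WT (3 of 12 higher: Mmp12, Cd9, Trem2). Of the 12, 9 had positive log2 fold changes and 3 negative ones, which included Ly6c2 (-1.53, edgeR adjusted p = 0.256). Lyz2, the most abundant, averaged 606 against 416 CPM (edgeR adjusted p = 0.546). Stellate markers summed to 1057 to 1285 and 546 to 674 CPM (3 of 12 higher: Col1a1, Col3a1, Dcn), with 11 positive and 1 negative. In each of these lists 25% were called, against 6.94% of all genes tested. Cholangiocyte markers summed to 112 to 134 and 54.8 to 99.6 CPM (Prom1 higher of 6 tested, or 16.7% called, with all 6 log2 fold changes positive). Prom1 was at 14.5 to 20.3 CPM in KO and 0.68 to 1.28 in WT. Spp1, the most abundant of these markers, averaged 90.0 against 73.7 CPM (edgeR adjusted p = 0.513). Neutrophil and lymphocyte markers summed to 21.5 to 30.4 and 18.0 to 50.4 CPM, with 0 of 12 called by edgeR, DESeq2 or limma-voom (1 each way at an unadjusted p under 0.05). In bulk tissue, fewer cells of a type and less RNA per cell cannot be told apart.

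The comparison of KO with WT addresses iron genes in livers that lack or carry Sesn3, all under the same diet. Hamp and Id1 were higher in KO and no member was lower by the test, 2 of 10 called against 6.94% of all genes tested (3.36% higher and 3.58% lower). In 6 of the 10 members the ranges of KO and WT did not overlap, against 33.5% of all genes tested. Those 6 were Hamp, Id1, Smad7, Hfe and Slc40a1, each higher in KO, and Tfrc, lower in KO. DESeq2 called 5 members (Hamp, Id1, Smad7 and Slc40a1 higher, Tfrc lower) and 15.3% of all genes, and limma-voom 3 members and 6.7% of all genes. At an unadjusted p under 0.05 lay 6 members, 5 higher and 1 lower, against the 25.8% of all genes. The median log2 fold change was 0.29 over the members and 0.0027 over all genes tested.

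**Figure D1:**
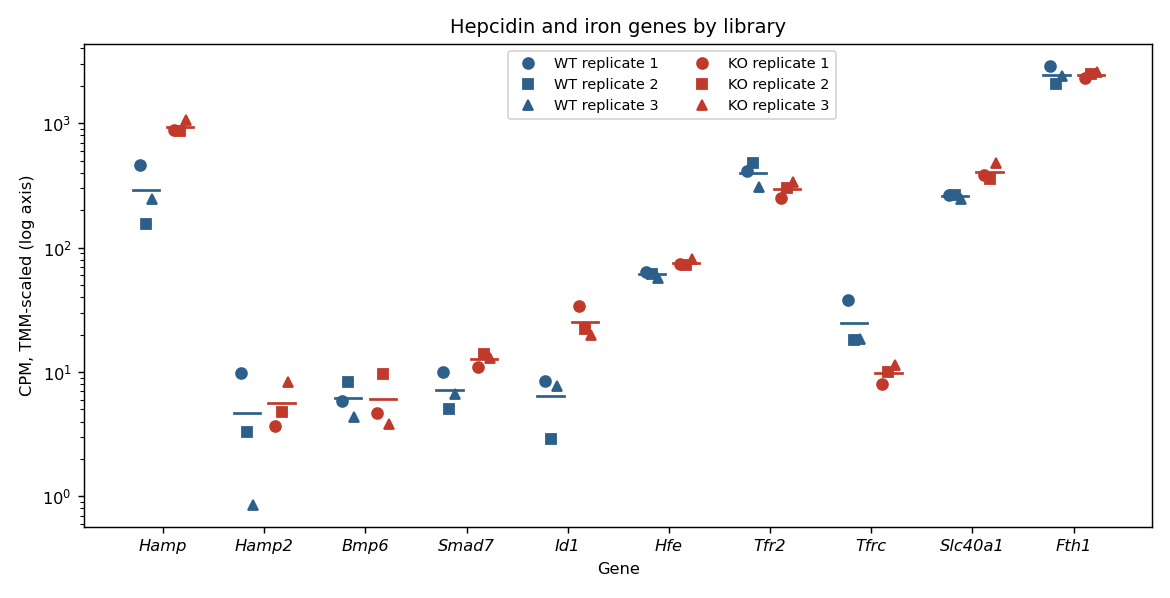
Levels of the 10 genes in each library, as CPM scaled by TMM factors on a log axis; points are libraries (blue WT, red KO, shape by replicate) and bars are group means (n = 3). The 3 KO libraries lie above all WT libraries for Hamp and Id1 and below them for Tfrc, while the groups overlap for Hamp2, Bmp6 and Fth1.

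Hamp, the hepcidin gene, stood at 880, 875 and 1073 CPM (counts scaled to library size with TMM factors) in KO replicates 1 to 3 and at 467, 154 and 245 CPM in WT replicates 1 to 3. The lowest KO library was above the highest WT library, and WT replicate 2 was the lowest of all. The counts behind these values ran from 2646 to 24907 a library, so counting error is small beside the spread between libraries. Hamp rose from 289 ± 161 to 943 ± 113 CPM (SD, n = 3 each), 3.27-fold, with a log2 fold change of 1.71 (SE 0.39, edgeR adjusted p = 0.046). The call rests close to 0.05: with KO replicate 1, 2 or 3 or WT replicate 3 left out the adjusted p was 0.119, 0.134, 0.118 and 0.141, at log2 fold changes of 1.61 to 1.76. In the same fits 2.25%, 0.771%, 1.99% and 2.22% of all genes were called, against 6.94% with all libraries. Losses of calls in these fits, for Hamp and for the genes below, stand beside those shares. Without WT replicate 1, the WT library with the highest Hamp, the log2 fold change was 2.25 (adjusted p = 0.0111).

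Hamp2 showed no separation of the genotypes. Counts were 87, 123 and 194 in KO replicates 1 to 3 and 187, 57 and 16 in WT replicates 1 to 3, or 3.68, 4.75 and 8.36 CPM against 9.79, 3.31 and 0.855 CPM. The groups overlapped fully, with the highest and the lowest library both WT. The log2 difference was 0.26 (SE 0.75, edgeR adjusted p = 0.855), and it was -0.23 without WT replicate 3 and 1.44 without WT replicate 1. The ratio of Hamp to Hamp2 counts was 239, 184 and 128 in KO and 47.7, 46.4 and 287 in WT (exact permutation test of log2 ratios, two-sided p = 0.4; the smallest that 3 against 3 allows is 0.1). With the counts of both genes summed, the log2 fold change of hepcidin was 1.69 (edgeR adjusted p = 0.0468). Only the promoter windows of the copies were aligned here, not their transcripts, and the handling of multi-mapping reads is not stated. The split of reads between the copies is therefore uncertain.

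Per length, hepcidin was among the most abundant of these transcripts. Divided by the length of the annotated exons, 410 bases for Hamp and 3469 for Fth1, the levels in KO were 2299 ± 275 CPM per kb for Hamp and 710 ± 40.3 for Fth1 (SD, n = 3 each), with no overlap. In WT they were 704 ± 392.3 and 708 ± 119 CPM per kb, within each other's spread. Then followed, in WT, Tfr2 at 92.3 ± 20.4, Slc40a1 at 28.8 ± 1.05 and Hfe at 17.1 ± 0.931 CPM per kb, with no overlap among these 3. Hamp2 at 7.98 ± 7.91, Id1 at 5.48 ± 2.60 and Tfrc at 4.02 ± 1.84 CPM per kb overlapped one another, and the highest Hamp2 library reached the lowest Hfe library. Smad7 at 1.60 ± 0.562 and Bmp6 at 1.58 ± 0.501 CPM per kb were within their spread. The annotation used for the deposited counts is not given, so these lengths are approximate.

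Bmp6, the ligand, did not separate the genotypes. It was at 4.65, 9.69 and 3.84 CPM in KO replicates 1 to 3 and at 5.86, 8.25 and 4.38 CPM in WT replicates 1 to 3. KO replicate 2 was the highest library and KO replicate 3 the lowest. The log2 difference was -0.02 (SE 0.40, edgeR adjusted p = 0.979), and it ran from -0.54 without KO replicate 2 to 0.25 without WT replicate 2. Markers of sinusoidal endothelium, the cells that make BMP6, summed to 813, 690 and 391 CPM in KO and 947, 972 and 734 CPM in WT. Of these 15 markers 1 fell, the nuclease gene Dnase1l3 (2.76-fold, edgeR adjusted p = 0.0288), or 6.67% called against 6.94% of all genes tested. Log2 fold changes were negative in 14 of the 15, while 50.3% of all genes had positive ones. KO replicate 3 was lowest both in Bmp6 and in these markers, and their part in the Bmp6 values was not tested.

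Id1 encodes an inhibitor of basic helix-loop-helix factors and is an immediate target of BMP-SMAD signalling. It was at 34.2, 22.2 and 19.8 CPM in KO replicates 1 to 3 and at 8.48, 2.91 and 7.69 CPM in WT replicates 1 to 3. Every KO library was more than 10 CPM above every WT library, and WT replicate 2 was again the lowest. Id1 rose from 6.36 ± 3.02 to 25.4 ± 7.73 CPM (SD, n = 3 each), 3.98-fold, with a log2 fold change of 1.99 (SE 0.40, edgeR adjusted p = 0.0348). Without KO replicate 1, 2 or 3 or WT replicate 3 the adjusted p was 0.108, 0.106, 0.0767 and 0.0913. Cells other than hepatocytes express Id1 too. The sums of stellate, cholangiocyte, and macrophage and monocyte markers given above were higher in every KO library than in any WT library. So were those of the Kupffer cell markers given below. The sums of endothelial markers and of neutrophil and lymphocyte markers overlapped. The part of these cells in the rise of Id1 was not tested.

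Smad7 encodes the inhibitory SMAD that feeds back on the pathway. It was at 11.1, 13.97 and 12.9 CPM in KO replicates 1 to 3 and at 9.99, 4.999 and 6.68 CPM in WT replicates 1 to 3. The groups did not overlap, but the gap between the nearest libraries was small. The log2 difference was 0.81 (SE 0.26) and missed the threshold (edgeR adjusted p = 0.103). It passed with DESeq2 (adjusted p = 0.0489) and without WT replicate 1, the WT library nearest to KO (log2 1.12, edgeR adjusted p = 0.0325).

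**Figure D2:**
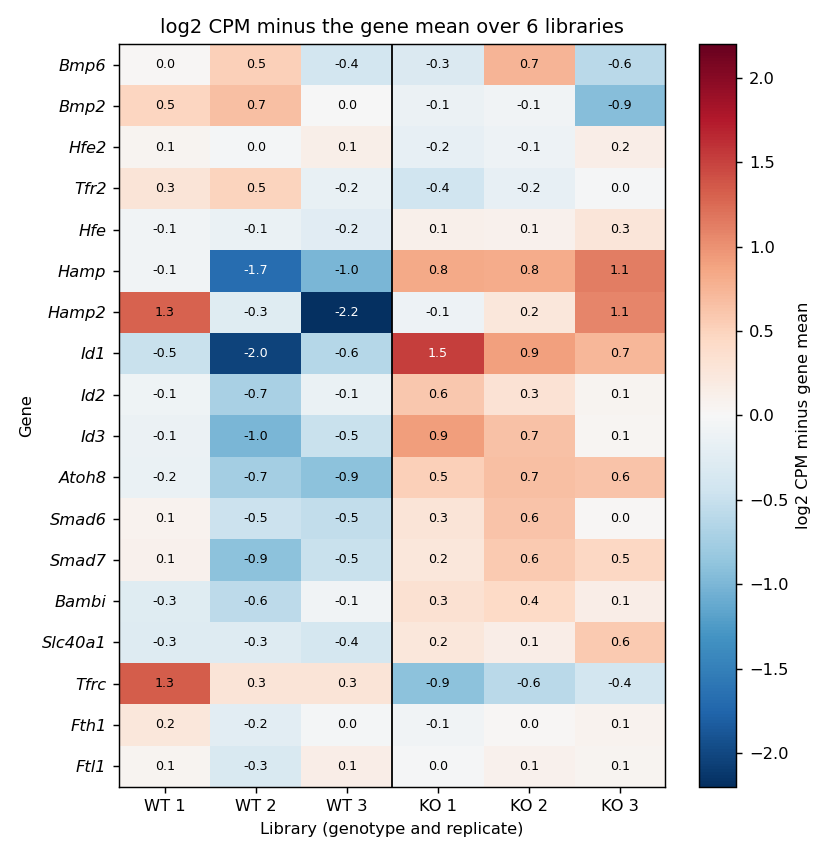
Log2 CPM of 18 iron and BMP-SMAD genes in each library, minus the gene's mean over the 6 libraries; columns are libraries, colours and printed values give the difference. Hamp and Id1 are lowest in WT replicate 2 (-1.7 and -2.0) and above 0 in every KO library, while Bmp6 has both signs in each group.

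Among BMP-SMAD target genes outside the 10, 1 of 9 tested rose and none fell, or 11.1% called against 6.94% of all genes tested. Of the 9, 8 had positive log2 fold changes (50.3% of all genes), with a median of 0.64, and 7 were higher at an unadjusted p under 0.05 (25.8% of all genes in either direction). The riser was Atoh8, a transcription factor gene that responds to BMP and iron, at 29.7, 32.7 and 32.0 CPM in KO and 18.6, 12.3 and 11.1 CPM in WT (2.25-fold, log2 1.17, SE 0.20, edgeR adjusted p = 0.0205). Its adjusted p rose to as much as 0.0936 without KO replicate 1, 2 or 3 or WT replicate 3. Id3 was at 77.2 ± 22.1 against 36.6 ± 10.8 CPM, Id2 at 124 ± 23.2 against 80.0 ± 17.5 CPM and Gata6 at 12.98 ± 0.477 against 7.96 ± 1.43 CPM in KO and WT (SD, n = 3 each). These 3 missed the threshold (edgeR adjusted p = 0.0645, 0.105 and 0.0525). KO and WT ranges were apart in 6 of the 9 genes, these 3 included, and in 33.5% of all genes. DESeq2 called 4 of the 9 and limma-voom 2, against 15.3% and 6.7% of all genes.

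The genes between ligand and nucleus were looked at next. Of 19 tested BMP ligands, receptors and SMADs, none rose and 1 fell, or 5.26% called against 6.94% of all genes tested. Their median log2 fold change was 0.03. The faller was Acvr2b, a type II activin and BMP receptor, from 3.51 ± 0.948 CPM in WT to 1.403 ± 0.0462 CPM in KO (2.49-fold; SD over 3 libraries a group; edgeR adjusted p = 0.0428). It missed the threshold without any 1 of KO replicates 1 to 3, WT replicate 2 and WT replicate 3 (adjusted p of up to 0.159), with library size only and with limma-voom. The hemojuvelin gene, listed as Hfe2, was at 83.1 ± 10.5 against 88.4 ± 5.37 CPM, endoglin (Eng) at 97.7 ± 27.0 against 112 ± 13.7 CPM and the type I receptor gene Bmpr1a at a log2 difference of -0.09 (SE 0.11). Bmp2, the other endothelial ligand, was at 19.02, 19.8 and 10.9 CPM in KO and 29.0, 33.1 and 20.7 CPM in WT, without overlap, and missed the threshold (edgeR adjusted p = 0.139). Of 13 tested inhibitors and modifiers of the pathway none was called by edgeR or limma-voom and 1 was by DESeq2. Of all genes tested these methods called 6.94%, 6.7% and 15.3%. At an unadjusted edgeR p under 0.05 lay 2 higher and 3 lower, against 25.8% of all genes in either direction. The 2 higher genes, Smad6 and Bambi, are also on the list of BMP-SMAD targets and were counted there. Tmprss6, the matriptase-2 gene, was at 447 ± 82.0 against 644 ± 192 CPM (log2 -0.53, SE 0.25, edgeR adjusted p = 0.231). Furin was at 299 ± 45.1 against 362 ± 67.6 CPM, and Fgl1, whose product can bind BMP6, at 178 ± 29.8 against 280 ± 90.9 CPM. Erythroferrone, listed as Fam132b, had at most 5 counts in any library.

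In the IL-6 and STAT3 arm 2 of 18 tested genes rose and 1 fell, or 16.7% called against 6.94% of all genes tested. The median log2 fold change was -0.07. Il22ra1, a receptor chain for interleukin 22, rose from 14.1 ± 1.39 to 25.7 ± 4.96 CPM (1.82-fold; SD over 3 libraries a group; edgeR adjusted p = 0.0314). Lif, an IL-6 family cytokine, rose from 2 to 3 counts a WT library to 20 to 30 a KO library (log2 2.78, SE 0.47, edgeR adjusted p = 0.0199), and its receptor gene Lifr fell from 187 ± 86.3 to 71.6 ± 3.44 CPM (2.62-fold, adjusted p = 0.0408). Without 1 library the 3 genes reached adjusted p values of up to 0.123, 0.0858 and 0.153: the call of Lif and of Lifr was lost when any KO library or WT replicate 3 was left out, and that of Il22ra1 when KO replicate 1, KO replicate 2 or WT replicate 3 was left out. Il6 itself had 4 counts in KO replicate 1, 1 in WT replicate 1 and 0 in the other libraries. Its shared receptor chain Il6st was at 170 ± 32.5 against 172 ± 10.4 CPM. The IL-6-specific chain Il6ra was at 15.3, 18.4 and 18.7 CPM in KO and 37.8, 34.4 and 22.2 CPM in WT, without overlap. Its log2 difference of -0.85 (SE 0.21) missed the threshold (edgeR adjusted p = 0.0529, DESeq2 0.00664). Of the 18 genes 7 had positive log2 fold changes and 11 negative ones. Cebpa and Creb3l3, liver factors that act on the Hamp promoter, were at 330 ± 51.9 against 463 ± 187 CPM and 309 ± 71.6 against 269 ± 28.3 CPM.

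**Figure D3:**
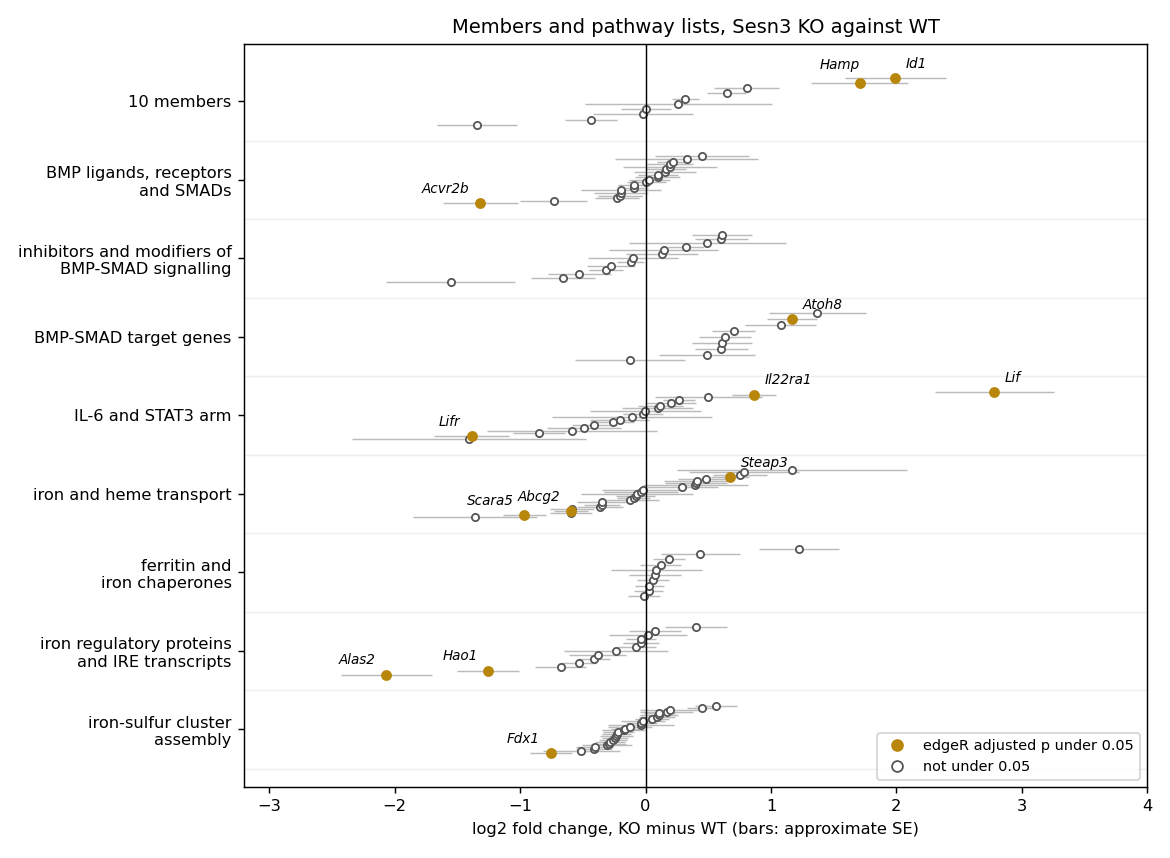
Log2 fold change (KO minus WT) of every tested gene of the 10 members and of 8 pathway lists; points are genes, horizontal bars approximate standard errors, and filled points had an edgeR adjusted p under 0.05. The BMP-SMAD targets lie to the right of 0 with 1 exception, the BMP ligands, receptors and SMADs lie around 0, and Lif and Alas2 lie farthest out among the called genes.

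The sensors of transferrin iron were not called. Hfe, which encodes an MHC class I-like partner of transferrin receptors, was at 73.3, 72.8 and 81.7 CPM in KO replicates 1 to 3 and at 64.2, 61.3 and 57.5 CPM in WT replicates 1 to 3. All KO libraries were above all WT libraries, at 76.0 ± 5.01 against 61.0 ± 3.32 CPM, but the log2 difference of 0.32 (SE 0.11) missed the threshold (edgeR adjusted p = 0.116). With library size as the only scaling it was 0.53 and passed (adjusted p = 0.0375). Tfr2, the hepatocyte sensor of diferric transferrin, was at 251, 301 and 336 CPM in KO and at 416, 480 and 305 CPM in WT. The lowest WT library, replicate 3, lay inside the KO range, and the log2 difference was -0.44 (SE 0.21, edgeR adjusted p = 0.229).

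Tfrc, the transferrin receptor 1 gene, whose 3′ UTR holds the 4 hairpins shown above, was at 8.03, 9.96 and 11.4 CPM in KO replicates 1 to 3 and at 37.9, 18.2 and 18.4 CPM in WT replicates 1 to 3. Every KO library was below every WT library, and WT replicate 1 was at about the summed level of the other WT libraries. The means were 9.79 ± 1.68 and 24.8 ± 11.4 CPM (SD, n = 3 each), 2.54-fold apart, with a log2 difference of -1.34 (SE 0.32) that narrowly missed the threshold (edgeR adjusted p = 0.0501). It passed with DESeq2 (adjusted p = 0.00134), without robust dispersion (0.0461), without WT replicate 1 (log2 -0.89, 0.039) and without WT replicate 2 (log2 -1.52, 0.0283). Erythroid cells are rich in Tfrc, and erythroid markers summed to 37.1, 52.6 and 34.3 CPM in KO and 120, 265 and 114 CPM in WT, most of it from Alas2, the erythroid heme synthesis enzyme. WT replicate 1, the highest in Tfrc, was not the highest in these markers. The counts hold 15 such markers, of which 6 globin genes were at 0 in every library. These zeros are not read as absent transcripts, because the handling of multi-mapping reads is not stated. Of the 15 markers 4 were tested and 1 fell (Alas2). That is 25% called against 6.94% of all genes tested, and all 4 had negative log2 fold changes. Their part in the Tfrc difference was not tested.

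Slc40a1, the ferroportin gene, was at 382, 355 and 479 CPM in KO replicates 1 to 3 and at 265, 264 and 248 CPM in WT replicates 1 to 3. The groups did not overlap and the WT libraries were within 17 CPM of each other, at 405 ± 65.2 against 259 ± 9.44 CPM (SD, n = 3 each). The log2 difference of 0.65 (SE 0.16, 1.57-fold) missed the threshold (edgeR adjusted p = 0.0519). It passed under 7 of the 8 other settings that kept all libraries, with adjusted p from 0.00137 (DESeq2) to 0.0491, and in none of the 6 fits without 1 library (0.0819 to 0.138). Kupffer cells, the liver macrophages that recycle iron, are rich in ferroportin: their 13 markers summed to 3157, 2688 and 3249 CPM in KO and 2666, 1321 and 1685 CPM in WT. Of the 13, edgeR called Clec4f (1.85-fold, adjusted p = 0.0352) and Vsig4 (1.76-fold, 0.0463) higher and none lower, or 15.4% against 6.94% of all genes tested. Log2 fold changes were positive in 10 and negative in 3. Cd163 was lower without overlap (log2 -1.36, edgeR adjusted p = 0.143, DESeq2 0.0335). The part of the Kupffer cell markers in the Slc40a1 difference was not tested.

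**Figure D4:**
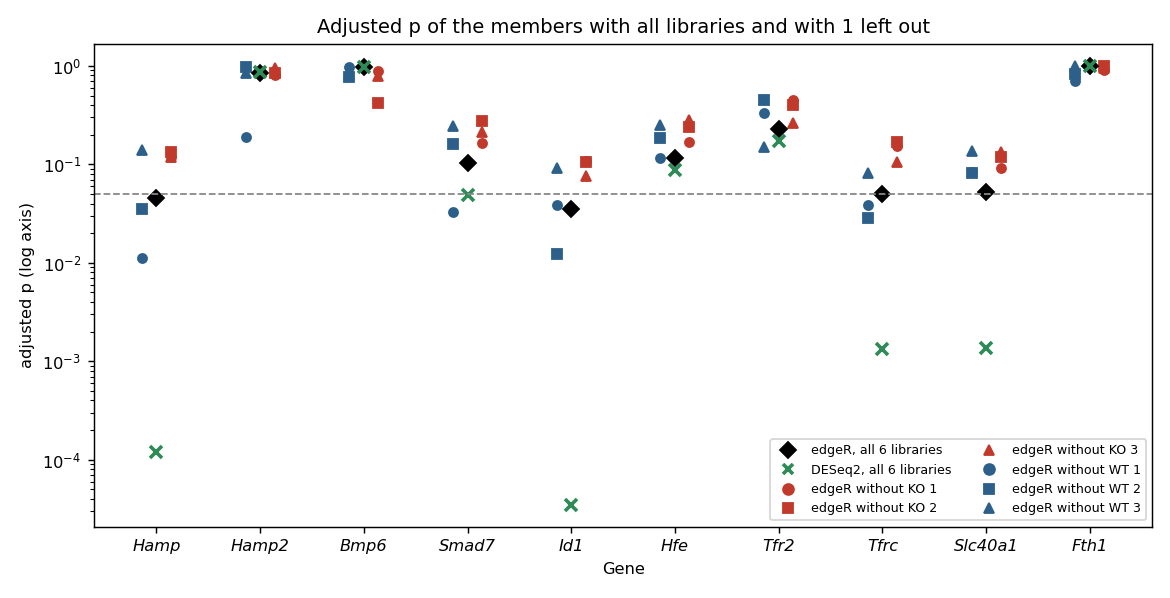
Adjusted p of each gene for KO against WT on a log axis, with edgeR on all 6 libraries (diamonds), DESeq2 on all 6 (crosses) and edgeR with 1 library left out (red KO, blue WT, shape by replicate); the dashed line is 0.05. Hamp, Id1, Tfrc and Slc40a1 lie near the line with all 6 libraries (0.046, 0.0348, 0.0501 and 0.0519) and on both sides of it across the fits, Slc40a1 through DESeq2 only.

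Ferritin RNA showed no separation of the genotypes. Fth1, the ferritin heavy chain gene, was at 2316, 2482 and 2594 CPM in KO replicates 1 to 3 and at 2896, 2080 and 2387 CPM in WT replicates 1 to 3. The KO values lay inside the WT range, and the log2 difference was 0.01 (SE 0.20, edgeR adjusted p = 0.988). Of 10 tested genes for ferritin, its turnover and iron chaperones none was called by edgeR or limma-voom and 1 was by DESeq2. Of all genes tested these methods called 6.94%, 6.7% and 15.3%. At an unadjusted edgeR p under 0.05 lay 1 of the 10, against 25.8% of all genes, and the median log2 fold change was 0.08. The ferritin light chain gene Ftl1 was at 3911 ± 154 against 3711 ± 617 CPM, and the iron chaperone genes Pcbp2 and Pcbp1 were at 238 ± 11.3 against 229 ± 21.2 CPM and 212 ± 7.68 against 208 ± 11.1 CPM (SD, n = 3 each). The gene with the low unadjusted p was Hmox1, the heme oxygenase that frees iron from heme, at 191, 155 and 147 CPM in KO and 106, 42.8 and 62.0 CPM in WT (log2 1.23, SE 0.32, edgeR adjusted p = 0.0627; DESeq2 0.00297).

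Iron and heme transport genes moved both ways. Of 23 tested 1 rose and 2 fell, or 13% called against 6.94% of all genes tested, with a median log2 fold change of -0.07. Steap3, the endosomal ferrireductase of the transferrin cycle, rose from 35.1 ± 5.45 to 55.8 ± 7.08 CPM (1.59-fold, edgeR adjusted p = 0.0428). Scara5, a ferritin receptor, fell from 33.7 ± 4.58 to 17.3 ± 3.12 CPM (1.95-fold, adjusted p = 0.022), and Abcg2, an exporter of porphyrins and drugs, from 103 ± 7.11 to 68.3 ± 9.18 CPM (1.51-fold, adjusted p = 0.0431; SD, n = 3 for each). With library size as the only scaling Scara5 and Abcg2 missed the threshold. Without 1 library Scara5 missed it when KO replicate 2 or 3 was left out (adjusted p of up to 0.105), Abcg2 in 5 of 6 fits (up to 0.155, all but the fit without WT replicate 1) and Steap3 in 5 of 6 (up to 0.133, all but the fit without WT replicate 2). Transferrin itself, listed as Trf, was at 35010 ± 2704 against 26270 ± 5547 CPM (edgeR adjusted p = 0.371). The scavengers hemopexin (Hpx) and haptoglobin (Hp) were at 16070 ± 777 against 16300 ± 6089 CPM and 8012 ± 326 against 8208 ± 2818 CPM.

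Of 13 tested iron regulatory proteins and IRE transcripts 2 fell and none rose, or 15.4% called against 6.94% of all genes tested. The median log2 fold change was -0.23. Alas2, which carries a 5′ UTR IRE, went down from 158 ± 82.3 to 37.7 ± 7.90 CPM (4.19-fold; SD over 3 libraries a group; log2 -2.07, SE 0.36, edgeR adjusted p = 0.0235), and Hao1, the glycolate oxidase gene, fell 2.39-fold (adjusted p = 0.0311). Leaving out any KO library ended both calls, with adjusted p reaching 0.0939 and 0.122, and leaving out WT replicate 3 ended that of Hao1. The iron regulatory protein genes Aco1 and Ireb2 were at 198 ± 19.5 against 287 ± 27.8 CPM and 57.6 ± 6.33 against 92.1 ± 24.6 CPM, each without overlap and each short of the threshold (edgeR adjusted p = 0.0632 and 0.0883). Sdhb, a respiratory subunit, was at a log2 difference of -0.41 (SE 0.13, adjusted p = 0.102). In iron-sulfur cluster assembly 1 of 26 fell and none rose (3.85% called, below the share of all genes), with a median of -0.17. The faller was the ferredoxin gene Fdx1, from 102 ± 20.4 to 60.5 ± 5.81 CPM (1.69-fold, edgeR adjusted p = 0.0402), which missed the threshold in all fits without 1 library but that without WT replicate 1 (up to 0.13) and with library size only. Hspa9, the mitochondrial chaperone, was at 539 ± 25.3 against 500.1 ± 54.9 CPM, and the mitochondrial membrane protein gene Cisd1 and the scaffold gene Iscu were at 103 ± 34.5 against 146 ± 44.1 CPM and 80.4 ± 6.43 against 96.3 ± 5.63 CPM.

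Genes with a library pattern like that of Hamp were looked for among 11717 tested genes with a mean of at least 1 CPM, by the root mean square difference of log2 CPM, each gene centred on its mean over the 6 libraries. Among the nearest were Mfge8, which encodes a bridging protein for the uptake of dying cells (0.184 log2 units), and the aldehyde dehydrogenase gene Aldh1b1 (0.199). The median gene lay at 1.06. Of the other members Id1 lay at 0.42 from Hamp and Smad7 at 0.541, with 100 and 307 of the 11717 genes closer, while Bmp6 lay at 1.26 and Hamp2 at 1.05. Nearest to Id1 were Nid1, the basement membrane gene nidogen 1 (0.136), Anxa2, an annexin (0.151), and Uprt (0.168). Nearest to Bmp6 were Rasl11b (0.202), Crygn (0.216) and Kcnq1 (0.218). These distances rest on 6 libraries in 2 groups, so any gene that separates the genotypes by a like amount comes out close.

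WT replicate 1 was the highest WT library in 8 of the 10 genes, all but Bmp6 and Tfr2, and in 33.5% of all genes tested. The lowest was WT replicate 2 in 5 genes (Hamp, Smad7, Id1, Tfrc and Fth1) and WT replicate 3 in the other 5, against 36.2% and 27.5% of all genes tested. The spread within WT, as the highest over the lowest library, was 3.03-fold for Hamp, 2.92-fold for Id1 and 11.5-fold for Hamp2, against 1.23-fold, 1.73-fold and 2.27-fold within KO, while Slc40a1 spread 1.07-fold in WT and 1.35-fold in KO. These differences in spread were not tested.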

How the data were processed

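The values are raw read counts by gene symbol as the authors deposited them, not normalized. STAR 2.5, featureCounts from Subread 1.5.3, the mm10 build and edgeR 3.20.8 stand in the submitters' processing notes. They do not state the annotation, the strand setting or the handling of multi-mapping reads, so near-identical, overlapping and antisense genes are uncertain. Per the labels' protocols, frozen liver gave RNA by Trizol, and 1 µg went into each TruSeq library.

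Libraries were grouped by genotype and numbered in accession order, which pairs no samples. Nothing says more than that they are separate samples, so p-values measure the spread between these samples only. Every pair of libraries differed by more than sampling noise (chi-square per degree of freedom of at least 21.5). Genes were filtered with filterByExpr (minimum count 10, minimum total 15), scaled by TMM and tested with edgeR 4.0.16 in R 4.3.3 (glmQLFit with robust dispersion, two-sided glmQLFTest, KO against WT), with p-values adjusted by Benjamini-Hochberg across all 12945 genes and a threshold of 0.05. Standard errors were taken as the size of the log2 fold change over the square root of the F statistic. An exact test of 3 against 3 cannot go below 0.1. Alternatives were other scaling factors and filters, dispersion without robust estimation, DESeq2 1.42.0, limma-voom (limma 3.58.1), and fits that dropped 1 library at a time. The calculation was first tested on simulated data.

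The members and lists were chosen with earlier results of these data known. Named were the 10 members and, per pathway list, called genes and the 3 most abundant others (Furin and Bmpr1a among them). Bmp2, Fam132b, Il6, Il6ra, Smad6, Bambi, Hmox1 and Ireb2 were chosen after their values were seen. Of the listed genes Flvcr1, Flvcr2 and Ahsp were not analysed here. Lengths and positions come from GENCODE mouse release 21 and promoters from RefSeq, GRCm38.p6. Alignments used Biopython 1.88 and figures matplotlib 3.10.9. A few genes that these rules would name are not reported here.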

Additional observations from a re-analysis of the deposited data

How the results depend on the processing

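Over all genes 435 were higher and 463 lower. The counts were 707 and 258 with library size only, which shifted the median log2 fold change of all genes to 0.213, and 921 and 1061 with DESeq2. Without 1 library they ran from 48 to 504 higher and from 53 to 475 lower. The fits without 1 of the KO libraries or without WT replicate 3 called 0.771% to 2.25% of all genes. Those without WT replicate 1 and WT replicate 2 called 7.32% and 6.68%. Members called higher (2) and lower (0) were 4 and 0 with library size only, 4 and 1 with DESeq2 and 2 or 3 and up to 1 under the other settings with all libraries, with 1 lower without robust dispersion, and 0 to 3 and 0 to 1 without 1 library. Hamp and Id1 passed under all 8 other settings with all libraries. Without 1 library Hamp ran from 1.41 to 2.25, Id1 from 1.65 to 2.26, Smad7 from 0.60 to 1.12, Tfrc from -1.52 to -0.89, Hamp2 from -0.23 to 1.44, Bmp6 from -0.54 to 0.25 and Fth1 from -0.10 to 0.15 (log2).

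Newly past the threshold were Slc40a1 with upper-quartile factors (0.70), library size only (0.85), no filter (0.66), 1 CPM in 3 libraries (0.65), DESeq2 (0.64), limma-voom (0.64) and no robust dispersion (0.65); Hfe with library size only (0.53); Smad7 with DESeq2 (0.80); and Tfrc with DESeq2 (-1.35) and without robust dispersion (-1.34). Changes of sign were of values near 0: Fth1 with RLE factors (-0.00114) and DESeq2 (-0.00114), and Bmp6 with upper-quartile factors (0.038) and unscaled library sizes (0.21). The cause of these shifts was not tested.

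Calls in the lists moved with DESeq2 from 0 to 1 for pathway inhibitors and modifiers, 1 to 4 for BMP-SMAD targets, 3 to 7 for iron and heme transport, 0 to 1 for ferritin and chaperones, 2 to 5 for iron regulatory proteins and IRE transcripts and 1 to 3 for iron-sulfur assembly. The share of all genes called moved from 6.94% to 15.3%. BMP-SMAD targets had 2 calls with limma-voom, upper-quartile factors and library size only, and BMP ligands, receptors and SMADs 0 with library size only and limma-voom. Of all genes, limma-voom, upper-quartile factors and library size only called 6.7%, 6.83% and 7.45%. Without 1 library the calls ran from 0 to 1 (ligands, receptors and SMADs; inhibitors and modifiers; ferritin; iron-sulfur assembly), 0 to 3 (BMP-SMAD targets; iron regulatory proteins), 0 to 4 (IL-6 and STAT3 arm) and 0 to 2 (iron and heme transport). Of all genes, the fits without 1 library called 0.771% to 7.32%. No paired analysis was possible because the labels carry no replicate numbers. Hamp2 and Bmp6 rest on 16 to 194 and 82 to 251 counts a library.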

Other observations

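The ratio of ferritin heavy chain to transferrin receptor counts, Fth1 to Tfrc, does not depend on scaling factors and was looked at after the values were seen. It was 288, 249 and 228 in KO replicates 1 to 3 and 76.3, 114 and 130 in WT replicates 1 to 3 (exact permutation test of log2 ratios, two-sided p = 0.1, the smallest that 3 against 3 allows). Tfrc alone already separated the groups while Fth1 did not, so this p-value is not separate support. The ratio of Fth1 to Ftl1 counts was 0.619, 0.614 and 0.658 in KO and 0.736, 0.691 and 0.57 in WT. The ratio of Hamp to Id1 counts was 25.7, 39.5 and 54.3 in KO and 55, 52.9 and 31.9 in WT, with overlap, although both genes rose. The ratio of Id1 to Bmp6 counts was 7.35, 2.29 and 5.16 in KO and 1.45, 0.352 and 1.76 in WT, and that of Hamp to Bmp6 counts 189, 90.3 and 280 in KO and 79.6, 18.6 and 56.0 in WT. Id1 and Hamp alone separated the groups while Bmp6 did not, so these ratios to Bmp6 are not separate results.

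The 6 globin symbols on the erythroid list (Hba-a1, Hba-a2, Hbb-bs, Hbb-bt, Hbb-b1 and Hbb-b2) are listed at 0 in all 6 libraries, while Alas2 had 719 to 4355 counts a library. The handling of multi-mapping reads is not stated, so these zeros are not read as absent transcripts. The erythroid signal in these livers was therefore read from the other listed genes.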
